A study of Mus musculus with 4 samples.

Results

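The 10 genes described here belong to the TEAD and YAP pathway: *Tead1*, *Tead2*, *Tead3*, *Tead4*, *Yap1*, *Wwtr1*, *Lats1*, *Lats2*, *Amotl2* and *Ankrd1*. Their accessible chromatin was taken as every region of the count table that overlapped one of these genes or the 25 kb on either side of it. This gave 231 regions of 255864 in all, or 0.0903% of them, and no region fell in the window of more than 1 gene. Accessibility was measured by ATAC-seq, in which a transposase cuts open chromatin and read density follows how open it is, in primary osteoblasts, the bone-forming cells, of 3-day-old C57BL/6 mice. One group was WT, labelled wild type with no further allele given. The other group was TCKO, carrying Prx1-Cre with Tet1fl/fl Tet2fl/fl Tet3fl/fl. The Cre driver is active in limb and part of the skull mesenchyme. The labels list 2 samples per genotype, although one of their protocol texts speaks of 3 repeats, and the table holds a single merged column for each genotype. The spread between replicates could therefore not be measured, no test of genotype was made, and every difference below compares 2 merged libraries with no replicate check.

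The TEAD proteins bind DNA and activate genes when YAP1 or its relative TAZ, the product of *Wwtr1*, joins them in the nucleus. The kinases LATS1 and LATS2 phosphorylate YAP1 and TAZ and keep them out of the nucleus, and angiomotin-family scaffolds such as AMOTL2 hold them at the cell edge. In cells of the skeleton the pathway is known for its response to mechanical load, and *Ankrd1* and *Amotl2* are commonly read as targets of its activity.

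The table summed to 56898657 reads in WT and to 34608167 in TCKO, whose counts were scaled by 1.64 to the WT total. A log2 ratio here is the scaled TCKO count over the WT count, so a negative value is lower in TCKO. Intervals are 95% Wilson intervals and cover counting error only. The median ratio of all regions was 0.06. Promoters of 6 osteoblast markers together held 72.6 CPM (counts scaled by the total of the library) in WT and 65.4 in TCKO. Of 5 macrophage or osteoclast markers, 4 had a promoter region (*Ptprc* had none), and together these held 11.0 and 15.4. Of 4 endothelial markers, 3 had one (*Tie1* had none), and these held 11.3 and 18.5. The 4 skeletal muscle markers had no promoter region. The part of these shifts in the results below was not tested, and fewer cells of a type cannot be told apart from a change within each cell. The summed ratio at the targeted genes was -0.17 for *Tet1*, -0.19 for *Tet2* and -0.06 for *Tet3*, but accessibility does not report the deletion of their exons.

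The sequences around the members show where TEAD proteins could bind. A consensus of GGAATG on either strand was searched. Promoters were read from the RefSeq table for GRCm38.p6, from 250 bases before to 50 after a start, and it held 12 promoters for 8 of the 10 genes. The consensus lay in 8 of these 12, belonging to 6 genes, and in 14.7% of all 32851 promoters of the table. Entries can overlap, and those of *Wwtr1* share the same match, which is therefore counted more than once. At least 2 copies, as in *Ankrd1* and one of the 3 *Tead3* promoters, lay in 1.36% of all promoters. The promoters of *Ankrd1*, *Yap1*, *Wwtr1* and *Amotl2* are given 5′ to 3′ on the strand of the gene because they are the pathway's targets and coactivators, with each consensus in capitals, read as CATTCC where it lies on the other strand. Their positions are chr19:36119795-36120094 (minus strand), chr9:8004547-8004846 (minus), chr3:57575861-57576160 (minus) and chr9:102717554-102717853 (plus).
*Ankrd1*: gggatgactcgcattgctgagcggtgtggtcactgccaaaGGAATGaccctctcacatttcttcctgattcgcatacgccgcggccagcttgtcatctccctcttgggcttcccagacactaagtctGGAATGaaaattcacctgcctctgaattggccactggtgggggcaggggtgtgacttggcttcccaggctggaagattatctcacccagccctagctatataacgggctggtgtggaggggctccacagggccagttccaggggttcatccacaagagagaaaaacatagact
*Yap1*: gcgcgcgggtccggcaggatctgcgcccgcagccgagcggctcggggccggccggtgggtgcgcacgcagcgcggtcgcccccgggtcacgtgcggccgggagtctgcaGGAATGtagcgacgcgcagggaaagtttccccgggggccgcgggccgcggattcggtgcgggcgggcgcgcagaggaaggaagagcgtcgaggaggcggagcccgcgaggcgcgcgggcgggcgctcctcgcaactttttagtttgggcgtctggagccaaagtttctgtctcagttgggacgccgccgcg
*Wwtr1*: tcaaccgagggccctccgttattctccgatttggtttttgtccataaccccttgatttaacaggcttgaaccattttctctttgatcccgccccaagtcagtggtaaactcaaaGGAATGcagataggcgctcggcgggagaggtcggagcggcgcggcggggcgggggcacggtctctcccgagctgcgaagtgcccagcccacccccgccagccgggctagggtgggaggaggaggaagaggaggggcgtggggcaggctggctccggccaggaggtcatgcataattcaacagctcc
*Amotl2*: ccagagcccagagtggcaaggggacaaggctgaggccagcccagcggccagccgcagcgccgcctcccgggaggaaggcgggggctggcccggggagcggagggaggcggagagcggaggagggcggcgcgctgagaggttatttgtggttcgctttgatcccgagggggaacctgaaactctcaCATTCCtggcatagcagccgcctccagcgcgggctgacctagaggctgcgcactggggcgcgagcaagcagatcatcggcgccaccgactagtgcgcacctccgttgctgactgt
The *Ankrd1* promoter is the poorest of these in CpG dinucleotides, with 7 in 300 bases against 49 in *Yap1*, 20 in *Wwtr1* and 26 in *Amotl2*.

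Over the 10 loci the chromatin changed little as a whole relative to all regions, whose total was set equal between genotypes by the scaling. A change shared by all regions would not show in these ratios. The median ratio of the 231 regions was -0.03, and their summed counts were 79290 in WT and 46062 in TCKO, a ratio of -0.07. At least 2-fold lower in TCKO were 9 regions, or 3.90%, against 4.51% of all regions and 4.36% of the 181529 regions within 25 kb of any protein-coding gene. At least 2-fold higher were 17, or 7.36%, against 12.3% of all regions and 10.6% of those near genes. The shares of the members lay near or below the background in both directions. The interval lay wholly past 2-fold at 1 region that was lower, against 0.654% of all regions, and at 5 that were higher, against 3.82%. All 26 regions past 2-fold lay away from promoters, with 16 in introns, 5 downstream of a gene, 4 upstream and 1 in an exon. Regions were classed by their midpoint, so an intron region can also overlap an exon. The loci are ordered by what the genes do. For each, the main promoter region and the strongest region away from promoters are given whatever their values, with the 5 largest falls and rises over all loci, and any further region named was chosen after its values were seen.

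**Figure D1:**
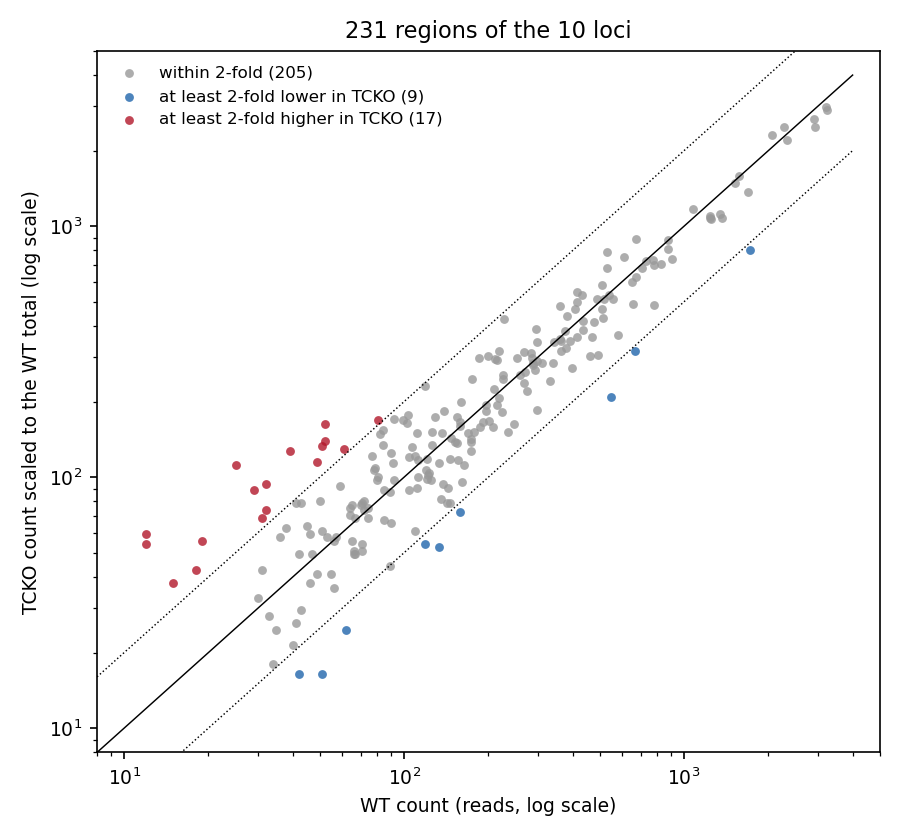
Counts of the 231 regions of the 10 loci in the WT library (horizontal, log scale) against the TCKO library scaled to the WT total (vertical, log scale). Points are regions, the solid line marks equal counts and the dotted lines 2-fold; the 17 red regions that were higher held 12 to 81 WT reads, whereas the 9 blue regions that were lower reached 1727.

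The result depended on the scaling. The backgrounds of the peak caller were not read directly but worked back from the fold enrichment and p-value of each summit. In each genotype the lowest of these was divided by the shortest peak interval. The inferred factor was 1.08 in place of 1.64, and under it the median of all regions was -0.54 and that of the members -0.63. Then 41 member regions were at least 2-fold lower, or 17.7%, against 19.9% of all regions, and 5 were at least 2-fold higher, or 2.16%, against 3.91%. Any positive ratio smaller than the shift of these medians turns negative with that factor, which holds for the *Tead2* locus and the *Ankrd1* promoter. Differences between loci, and the share of a locus that one region held, do not depend on the factor.

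The TEAD genes did not move together. *Tead2* was the highest of the 10 loci, *Tead1* and *Tead3* lay near 0, and *Tead4* was slightly lower. The locus of *Tead1* (chromosome 7, 112679318 to 112906807, plus strand) is by far the largest, with 57 regions, 18802 WT and 11246 TCKO counts, a ratio of -0.02 (-0.06 to 0.01). Its main promoter region held 1249 and 649 counts, a ratio of -0.23 (-0.36 to -0.09). Its largest region away from promoters, 16.1 kb upstream, held 2341 and 1339 counts, a ratio of -0.09 (-0.19 to 0.01). Of the 57 regions, 47 lay in introns, and the changes past 2-fold, 5 higher and 1 lower, were all there.

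The fall was at 107.7 kb from the 5′ end (chr7:112786871-112787173), with 159 WT and 44 TCKO counts, a ratio of -1.13 (-1.62 to -0.66). A peak was called there in WT only. The largest rise among regions with at least 100 counts in the higher genotype, after scaling, was at 65.7 kb, with 25 WT and 68 TCKO counts, a ratio of 2.12 (1.51 to 2.82). Further rises were at 119.7 kb, with 52 and 99 counts and a ratio of 1.63 (1.16 to 2.13), and at 154.0 kb, with 51 and 81 counts and a ratio of 1.37 (0.88 to 1.89). These 3 regions had a peak in TCKO only.

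The first 2 rises are printed because each holds an AP-1 consensus (TGANTCA), the site of FOS and JUN proteins. They are on the plus strand of GRCm38 at chr7:112744942-112745101 and chr7:112798915-112799214, with consensus matches in capitals. In the first, the AP-1 match overlaps one for Runt proteins (TGTGGT on either strand).
*Tead1* at 65.7 kb: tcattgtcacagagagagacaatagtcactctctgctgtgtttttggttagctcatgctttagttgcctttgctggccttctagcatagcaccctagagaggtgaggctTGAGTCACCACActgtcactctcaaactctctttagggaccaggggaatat
*Tead1* at 119.7 kb: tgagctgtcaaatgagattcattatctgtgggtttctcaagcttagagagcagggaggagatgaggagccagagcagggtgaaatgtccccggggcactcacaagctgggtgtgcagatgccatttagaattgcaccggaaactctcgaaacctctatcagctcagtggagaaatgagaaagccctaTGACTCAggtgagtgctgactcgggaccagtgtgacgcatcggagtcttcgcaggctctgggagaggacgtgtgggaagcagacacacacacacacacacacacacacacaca
The first has no CpG at all in its 160 bases, and the second, printed without its last base, has 8 in 300 bases. The *Tead1* rise at 154.0 kb has a Runt match and no AP-1 match. Of the 5 largest rises over all loci, that upstream of *Ankrd1* also has a Runt match without AP-1. The rise in *Yap1* has no TEAD, AP-1 or Runt match.

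*Tead2* (chromosome 7, 45215753 to 45233644, plus strand) had 8 regions with 2794 WT and 2160 TCKO counts, a ratio of 0.35 (0.26 to 0.43). This was the only one of the 10 whose interval lay wholly above 0, where 26.2% of 18554 protein-coding loci with at least 500 counts had such an interval, and it stood at percentile 93.9 of these loci. None of its regions was past 2-fold. The promoter held 610 and 459 counts, a ratio of 0.31 (0.13 to 0.48), and the region 19.6 kb from the 5′ end, downstream of the gene, held 672 and 543, a ratio of 0.41 (0.25 to 0.57).

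The ratios were not even along the window. A pair of upstream regions at -23.7 and -18.6 kb had ratios of 0.57 (0.40 to 0.75) and 0.60 (0.32 to 0.89), and the region at -17.1 kb had 0.14 (-0.13 to 0.40). The promoters of *Ccdc155* and *Slc6a16* in the same window had ratios of -0.02 (-0.26 to 0.23) and 0.04 (-0.50 to 0.57), and the last downstream region had 0.04 (-0.51 to 0.60). Under the background of the peak caller the *Tead2* ratio was -0.26, yet it remained the highest of the 10, since that factor moves every locus alike.

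*Tead3* (chromosome 17, 28331671 to 28350817, minus strand) had 17 regions with 8539 and 5250 counts, a ratio of 0.02 (-0.03 to 0.07). Promoters of other genes weigh heavily in it, since those of *Fance* and *Rpl10a* held 2916 and 2270 of the WT counts. Its own main promoter region held 518 and 312 counts, a ratio of -0.01 (-0.22 to 0.19). A second promoter region, at 0.64 kb, held 219 and 193 counts and had the highest ratio of the 18 promoter regions, 0.53 (0.26 to 0.81). The strongest region away from promoters, with its midpoint in an intron at 9.86 kb, also overlapped an exon. It held 907 and 449 counts, a ratio of -0.30 (-0.46 to -0.13).

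*Tead4* (chromosome 6, 128224288 to 128300823, minus strand) had 22 regions with 8291 and 4848 counts, a ratio of -0.06 (-0.11 to -0.01). A single region downstream of the gene, 100.1 kb from its 5′ end, took 39.1% of the WT counts of the locus and 36.3% of those in TCKO. It held 3240 and 1761 counts, a ratio of -0.16 (-0.25 to -0.08), and the gene body with the 2 kb before it had a ratio of 0.03. The only region past 2-fold was 14.1 kb upstream, with 51 WT and 10 TCKO counts, a ratio of -1.58 (-2.59 to -0.67).

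The main promoter region of *Tead4* held 1073 WT and 714 TCKO counts, a ratio of 0.13 (-0.01 to 0.27). It had 3 TEAD consensus matches in its middle 200 bp, the most of any member region. The outer matches are shown in windows of 30 bases on the plus strand of GRCm38, at chr6:128300445-128300474 and chr6:128300466-128300495, with the match in the centre in capitals.
*Tead4*, first match: aggagcccggcaGGAATGcacggaatgggc
*Tead4*, last match: ggaatgggcgctGGAATGagacgcgcgcgg

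**Figure D2:**
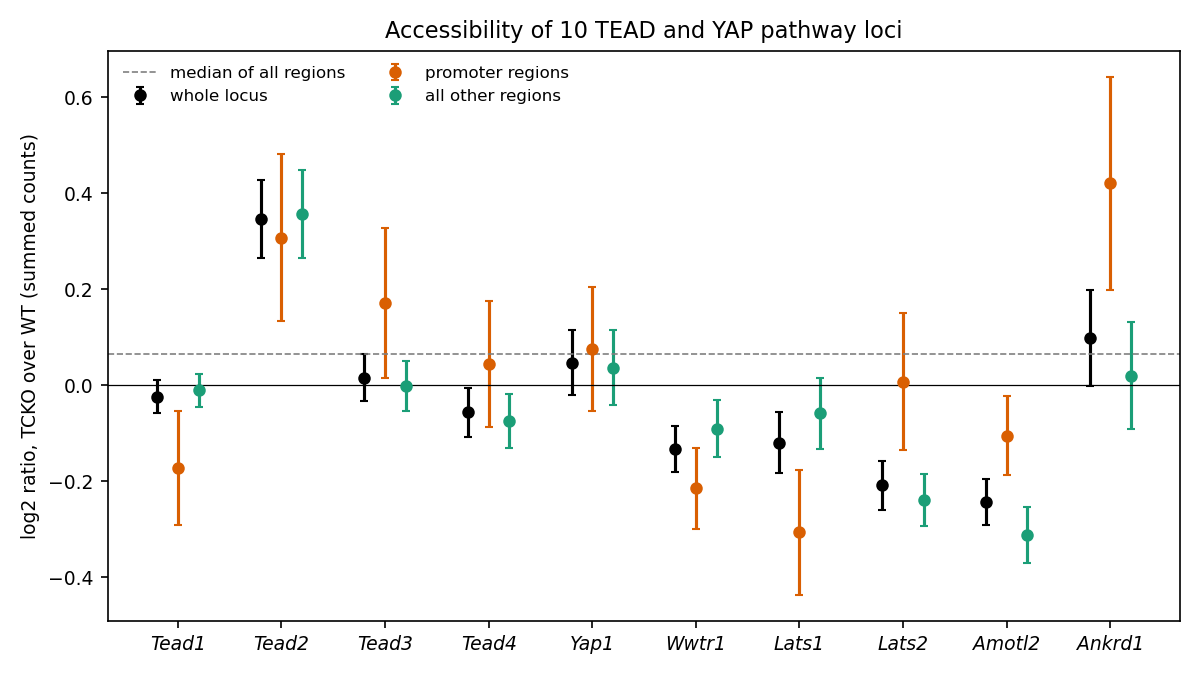
Log2 ratio of TCKO over WT (vertical) for summed counts of each gene's whole locus (black), its promoter regions (orange) and its other regions (green), with 95% Wilson intervals as bars and the median of all regions as a dashed line. Whole loci run from -0.24 at Amotl2 to 0.35 at Tead2, and the Ankrd1 promoter, at 0.42, lies above the rest of its locus.

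The coactivator genes differed in how evenly they were held. *Yap1* (chromosome 9, 7931999 to 8004596, minus strand) had 30 regions with 4622 WT and 2904 TCKO counts, a ratio of 0.05 (-0.02 to 0.11). This near balance covered 3 regions at least 2-fold lower and 5 at least 2-fold higher, all with their midpoint in an intron. Its main promoter region held 730 and 440 counts, a ratio of -0.01 (-0.18 to 0.16).

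The strongest *Yap1* region away from promoters, 54.1 kb into the gene (chr9:7950015-7950926), held 668 counts in WT and 193 in TCKO. This region also overlapped an exon. Its ratio was -1.07 (-1.30 to -0.84), and the fold enrichment over local background that the peak caller gave was 7.45 in WT and 4.38 in TCKO. Its share of the counts of the locus was 14.5% in WT (13.5% to 15.5%) and 6.65% in TCKO (5.80% to 7.61%). The interval of its ratio crossed 2-fold. The intervals of the shares, which come from the same counts set against the whole locus, did not overlap.

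The rises in *Yap1* were weaker regions. The largest, 20.8 kb into the gene, held 39 WT and 77 TCKO counts, a ratio of 1.67 (1.15 to 2.25), and had a peak in TCKO only. The others held 15 to 61 counts in WT and 23 to 79 in TCKO. The region at 51.5 kb, with 61 and 79 counts, was the only rise of the 17 that also had a WT peak.

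*Wwtr1* (chromosome 3, 57455649 to 57575910, minus strand) had 35 regions with 9560 and 5302 counts, a ratio of -0.13 (-0.18 to -0.08). Its main promoter region alone held 2940 and 1505 counts, a ratio of -0.25 (-0.34 to -0.16). Its strongest region away from promoters, 88.3 kb into the gene, held 773 and 444 counts, a ratio of -0.08 (-0.25 to 0.09), and was strongly enriched over its local background, 15.4-fold in WT and 14.4-fold in TCKO.

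Past 2-fold, *Wwtr1* had 1 lower and 3 higher regions. The lower one, 82.1 kb into the gene, held 133 WT and 32 TCKO counts, a ratio of -1.32 (-1.89 to -0.78), with a peak in WT only. The higher ones, at the far end of the gene or beyond it, held 12 to 32 counts in WT and 26 to 57 in TCKO.

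Both kinase genes were lower as loci, in different ways. *Lats1* (chromosome 10, 7681214 to 7716460, plus strand) had 13 regions with 5461 WT and 3056 TCKO counts, a ratio of -0.12 (-0.18 to -0.06). Its promoter carried this: the main promoter region held 1364 and 657 counts, a ratio of -0.34 (-0.47 to -0.20), the lowest of the 10 main promoters. That region also lies within 1 kb of a transcript start of *Pcmt1*, so it cannot be assigned to *Lats1* alone, and without any region near a start of another gene, which drops the promoter regions of *Lats1* too, the locus ratio was 0.03. Without only the 3 regions that are promoters of other genes and not of *Lats1*, it was -0.17 (-0.27 to -0.07). Its strongest region away from promoters held 196 and 112 counts, a ratio of -0.09 (-0.42 to 0.24). The only region past 2-fold was 56.1 kb from the 5′ end, downstream, with 119 WT and 33 TCKO counts, a ratio of -1.12 (-1.69 to -0.58). It had a peak in WT only and contains no CpG.

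*Lats2* (chromosome 14, 57689662 to 57758388, minus strand) had 20 regions with 9023 and 4748 counts, a ratio of -0.21 (-0.26 to -0.16), at percentile 10.1 of protein-coding loci. Here the promoter was even: its main region held 877 and 536 counts, a ratio of 0.01 (-0.15 to 0.16). The fall sat in an intron, 51.0 kb from the 5′ end (chr14:57706843-57707897), where the largest region of the locus in WT went from 1727 counts to 491, a ratio of -1.10 (-1.24 to -0.95). With 1055 bp it was the widest region past 2-fold among the members, and WT had 4 summits in it where TCKO had 2. Its share of the locus was 19.1% in WT (18.3% to 19.96%) and 10.3% in TCKO (9.51% to 11.2%).

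The neighbouring *Lats2* regions did not follow it. The region 2.10 kb nearer the 5′ end held 288 and 174 counts, a ratio of -0.01 (-0.28 to 0.26), and another intron region, at 40.0 kb, held 227 and 259, a ratio of 0.90 (0.65 to 1.16). The strongest TCKO region away from promoters lay 2.40 kb upstream, with 1693 and 830 counts and a ratio of -0.31 (-0.43 to -0.19). The one rise past 2-fold was small, with 12 counts in WT and 33 in TCKO.

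**Figure D3:**
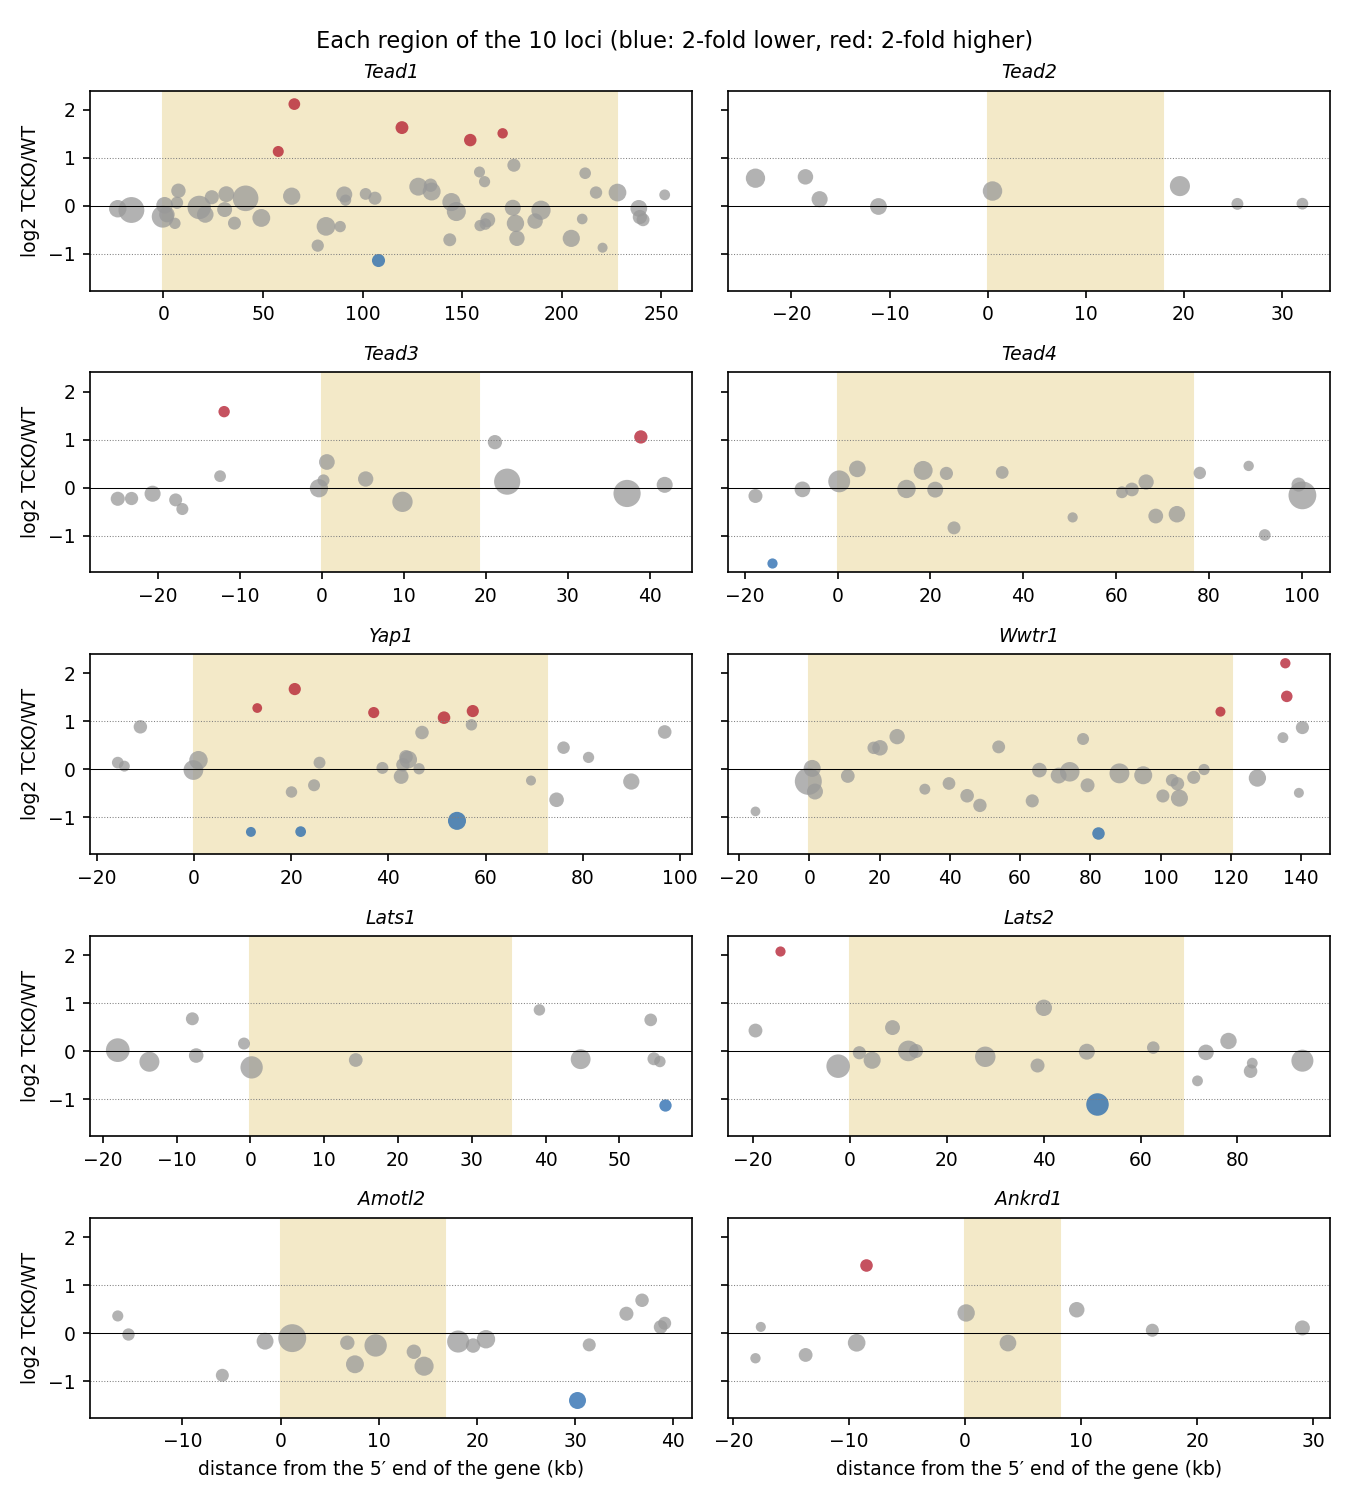
Log2 ratio of TCKO over WT (vertical) of each region against its distance from the 5′ end of its gene in kb (horizontal), with 1 panel per gene, the gene shaded and point size growing with counts. Blue regions are at least 2-fold lower and red ones at least 2-fold higher; the large blue points are in Lats2 at 51.0 kb, Yap1 at 54.1 kb and downstream of Amotl2 at 30.1 kb.

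Of the genes read as targets, *Amotl2* had a locus interval wholly below 0 and *Ankrd1* had one that spanned 0. *Amotl2* (chromosome 9, 102716672 to 102733418, plus strand) was the lowest of the 10 loci, with 19 regions, 10152 WT and 5216 TCKO counts, a ratio of -0.24 (-0.29 to -0.20). It stood at percentile 6.70 of protein-coding loci. Its promoter region held 3223 and 1822 counts, a ratio of -0.11 (-0.19 to -0.02).

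The other *Amotl2* regions together had a ratio of -0.31 (-0.37 to -0.25), which did not overlap the interval of the promoter. The region downstream of the gene, 30.1 kb from the 5′ end (chr9:102746471-102747155), went from 549 counts in WT to 127 in TCKO. Its ratio of -1.39 (-1.67 to -1.12) was the one fall among the 231 regions with an interval wholly past 2-fold, and its fold enrichment over local background was 10.1 in WT and 4.15 in TCKO. Its share of the locus fell from 5.41% (4.98% to 5.86%) to 2.43% (2.05% to 2.89%).

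Inside the gene, intron regions at 7.57 and 14.6 kb had ratios of -0.65 (-0.87 to -0.43) and -0.69 (-0.88 to -0.50), and the strongest intron region, at 9.67 kb, held 1339 and 681 counts, a ratio of -0.26 (-0.39 to -0.13). Beyond the fall the sign turned: regions at 35.2 and 36.8 kb had ratios of 0.40 (0.05 to 0.76) and 0.68 (0.29 to 1.09).

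The middle 300 bases of the *Amotl2* and *Lats2* regions are printed because the first is the largest fall among regions with at least 100 counts and the second held the most WT reads of the 9 lower regions, with every CpG, the dinucleotide whose methylation TET enzymes oxidise, in capitals. They are on the plus strand of GRCm38, at chr9:102746663-102746962 and chr14:57707220-57707519.
*Amotl2* at 30.1 kb: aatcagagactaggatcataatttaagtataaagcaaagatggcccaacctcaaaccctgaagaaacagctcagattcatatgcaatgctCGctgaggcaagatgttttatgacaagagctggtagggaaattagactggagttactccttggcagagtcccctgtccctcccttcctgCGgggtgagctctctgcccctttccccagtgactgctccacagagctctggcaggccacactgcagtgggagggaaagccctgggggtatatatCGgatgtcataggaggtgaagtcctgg
*Lats2* at 51.0 kb: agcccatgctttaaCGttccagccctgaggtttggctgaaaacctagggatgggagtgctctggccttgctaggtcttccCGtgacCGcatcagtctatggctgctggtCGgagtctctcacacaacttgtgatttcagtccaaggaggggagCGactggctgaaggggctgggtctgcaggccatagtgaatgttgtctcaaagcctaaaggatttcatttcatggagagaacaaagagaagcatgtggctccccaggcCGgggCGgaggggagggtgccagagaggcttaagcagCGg
They hold 3 and 8 CpGs, and neither the whole *Amotl2* region nor the whole *Lats2* region has a TEAD consensus.

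*Ankrd1* (chromosome 19, 36111961 to 36120099, minus strand), which encodes an ankyrin-repeat protein of muscle and other stretched tissues, had the fewest counts of the 10. Its 10 regions held 2046 WT and 1332 TCKO counts, a ratio of 0.10 (-0.00 to 0.20). The promoter region, which spans the printed sequence with its 2 TEAD matches, held 360 and 293 counts, a ratio of 0.42 (0.20 to 0.64), the highest of the 10 main promoters (-0.19 under the background of the peak caller). Its share of the locus was 17.6% in WT (16.0% to 19.3%) and 22.0% in TCKO (19.9% to 24.3%), so the intervals did not overlap.

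The rest of the *Ankrd1* locus was even, at 0.02 (-0.09 to 0.13). The strongest region outside the promoter, 9.36 kb upstream, held 477 and 252 counts, a ratio of -0.20 (-0.42 to 0.02), and has a TEAD consensus of its own, shown with 12 bases on each side at chr19:36129380-36129409 on the plus strand.
*Ankrd1*, upstream: tctcaccgaaaaGGAATGcttcgcaaggaa
A neighbour 8.57 kb upstream held 52 WT and 85 TCKO counts, a ratio of 1.41 (0.93 to 1.92), with peaks called in TCKO only. Of its bases 84.6% are marked as repeat in the reference, against a median of 6.90% over all regions.

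Set in order by ratio, the loci ran *Amotl2*, *Lats2*, *Wwtr1*, *Lats1*, *Tead4*, *Tead1*, *Tead3*, *Yap1*, *Ankrd1* and *Tead2*. Every locus overlapped the next in its counting interval except *Ankrd1* and *Tead2*. The interval lay wholly below 0 at 5 loci, *Amotl2*, *Lats2*, *Wwtr1*, *Lats1* and *Tead4*, a state found at 37.9% of protein-coding loci. The median of the 10 loci was -0.04 and that of the 18554 loci -0.03.

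Promoter regions as a group had a median near 0 with total-count scaling but differed among themselves. The 18 promoter regions of the members had a median ratio of 0.01, with 7 below 0, against a median of -0.07 over 22829 promoter regions in all. The highest was the *Tead3* region at 0.53. The lowest was a *Tead4* promoter region at 25.1 kb, with 142 WT and 48 TCKO counts and a peak in WT only. Its ratio was -0.84 (-1.32 to -0.38). The 18 regions held 18.7% of the members' counts in WT and 18.7% in TCKO. Per kb of region, promoters were most open at *Amotl2*, with 40.6 CPM in WT and 37.7 in TCKO, and at *Wwtr1*, with 33.3 and 28.7. They were least open at *Tead2*, with 8.79 and 10.9. The 205 regions away from any promoter had a median of -0.04, and 112 of them were below 0.

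**Figure D4:**
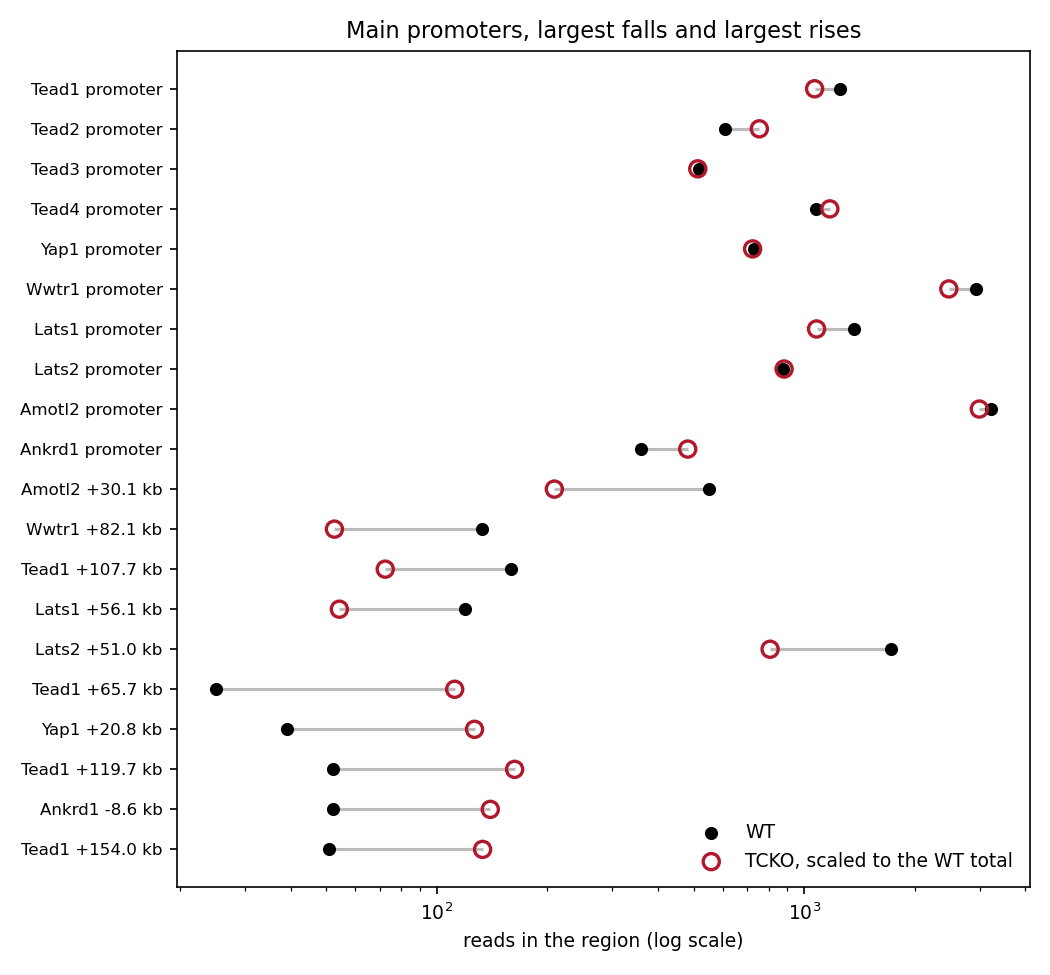
Reads (horizontal, log scale) in the main promoter region of each gene and in the 5 largest falls and 5 largest rises, with WT as black points and TCKO scaled to the WT total as red rings. Falls and rises are among regions with at least 100 counts in the higher genotype after scaling. Promoters keep ring and point close together; distal regions are named by distance from the 5′ end, and the 5 rises start from 25 to 52 WT reads.

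Lower and higher regions differed in size and in what called them. A region entered the table when a peak was called in either genotype, so regions called in 1 genotype were chosen in part by the values compared here. Of the 17 higher regions, 16 had a peak in TCKO only, against 63.6% of all regions at least 2-fold higher. Their median width was 142 bp and their median count 32 in WT and 57 in TCKO. Of the 9 lower regions, 6 had a peak in WT only, against 82.3% of all such regions, and their median width was 338 bp with median counts of 133 and 33. Among all 231 regions, 144 had a peak in both genotypes (62.3% against 56.8% of all regions), 65 in WT only (28.1% against 33.0%) and 22 in TCKO only (9.52% against 10.2%).

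CpG content was near that of all regions past 2-fold. The median CpG count per 100 bp was 0.73 in the 17 higher regions and 1.18 in the 9 lower ones. The medians were 0.68 and 1.30 in all regions at least 2-fold higher and lower. The share of regions with no CpG also depends on width, which differed between higher and lower regions. Of the 17 higher regions 7 contained no CpG, against 29.7% of all regions at least 2-fold higher. Of the 9 lower regions only that downstream of *Lats1* had none, where 12.9% of all regions at least 2-fold lower had none.

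Regions with and without the binding site of the pathway's own factors had the same median. A TEAD consensus lay in the middle 200 bp of 35 member regions, or 15.2%, against 16.3% of all regions. Their median ratio was -0.03, as was that of the regions without one, and ratios ran from -0.83 to 2.21. It was absent from the 9 lower regions, where 16.1% of all lower regions had it, and present in 4 of the 17 higher ones, where 18.1% of all higher regions had it. *Tead1* had 9 such regions, *Wwtr1* 8 and *Yap1* 5, and *Tead2*, *Lats1* and *Lats2* had none.

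The AP-1 consensus went with higher ratios, among the members as among all regions. The 43 member regions that had it, or 18.6%, had a median ratio of 0.31, against -0.08 in those without. Over all regions the medians were 0.42 and -0.02. It lay in 7 of the 17 higher regions, where 42.8% of all higher regions had it, and in 2 of the 9 lower ones, both in *Yap1*, where 7.98% of all lower regions had it.

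The Runt consensus lay in 9 of the 17 higher member regions and in 43 of the 231, against 22.6% of all higher regions and 22.2% of all regions. The median ratio of member regions with it was 0.06 and that of those without was -0.04. At least 1 of the 3 consensus sequences was in 15 of the 17 higher regions and 3 of the 9 lower ones, against 65.0% and 41.5% of all such regions. The counts are few, members share loci, and no test was made.

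**Figure D5:**
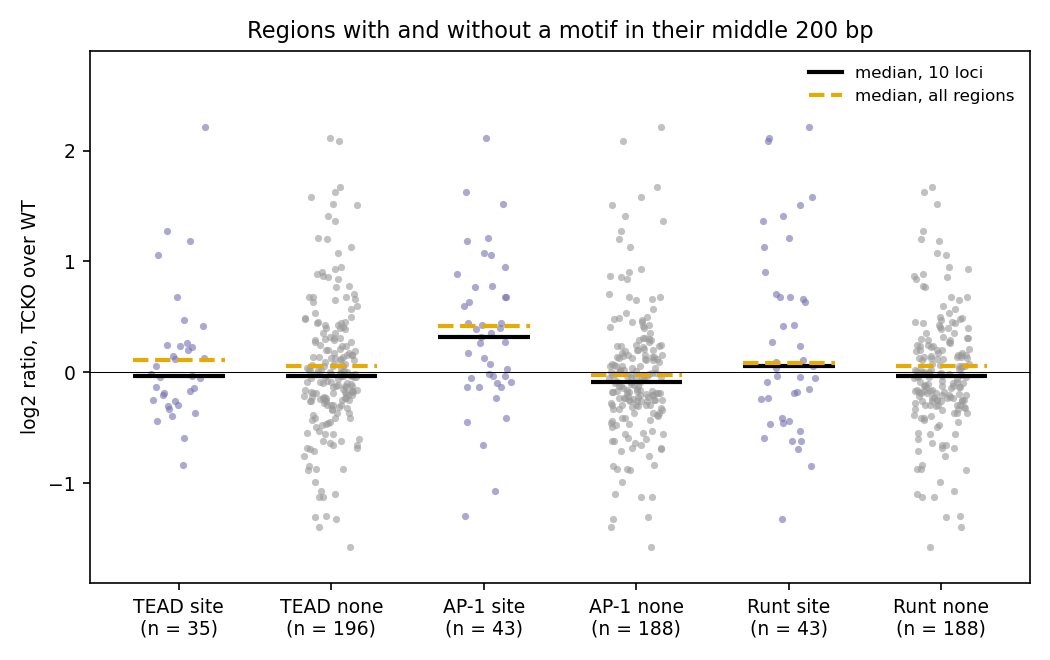
Log2 ratio of TCKO over WT (vertical) of the 231 member regions, split by whether their middle 200 bp hold a TEAD, AP-1 or Runt consensus. Each point is a region, black bars are medians over the members and dashed bars medians over all regions; only the AP-1 split separates the medians by more than 0.3, at 0.31 against -0.08.

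The wider pathway also had a median near 0 with total-count scaling. In 41 further genes, all with regions in their window, the median locus ratio was -0.02. The interval lay wholly below 0 at 14 loci and wholly above 0 at 14. These states were found at 37.9% and 26.2% of the 18554 protein-coding loci. None was past 1.5-fold, a change seen downward at 0.264% and upward at 1.89% of protein-coding loci. The medians were 0.03 over 13 genes of the kinase core and its partners, 0.00 over 7 junction and cytoskeletal regulators, 0.07 over 3 TEAD cofactors of the Vgll family and -0.03 over 18 target genes.

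The lowest of the 41 was *Ptpn14*, a phosphatase that binds YAP1, with 17596 WT and 8354 TCKO counts, a ratio of -0.36 (-0.39 to -0.32). It was followed by *Stk4*, one of the kinases upstream of LATS1 and LATS2, at -0.27 (-0.32 to -0.22), and *Vgll4*, a TEAD cofactor that competes with YAP1, at -0.26 (-0.30 to -0.23). *Ptpn14*, picked here as the lowest locus, had 6 of its 41 regions at least 2-fold lower and none at least 2-fold higher, against 4.51% and 12.3% of all regions.

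The highest was *Vgll2*, another TEAD cofactor, with only 429 and 372 counts and a ratio of 0.51 (0.31 to 0.71). The next were *F3*, which encodes tissue factor, at 0.29 (0.22 to 0.36), and the forkhead gene *Foxf2*, at 0.29 (0.18 to 0.39). The best-known targets, *Ccn2* and *Ccn1*, were named after their values were seen. *Ccn2* held 5636 and 2994 counts, a ratio of -0.20 (-0.26 to -0.13), and *Ccn1* held 7612 and 4578, a ratio of -0.02 (-0.07 to 0.04).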

How the data were processed

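ATAC-seq libraries of WT and TCKO osteoblasts were compared (2 samples per genotype by the labels). Per the submitters' notes and methods, base calling used CASAVA, reads were aligned to GRCm38 with STAR 2.7.0e, end to end and uniquely with fewer than 3 mismatches, and peaks were called with MACS2. Handling of duplicates and of the transposase offset is not given in the sources used here. The authors deposited raw read counts for regions called in either genotype, with replicates merged into 1 column each. The deposited peak lists hold a score, a fold enrichment ratio over local background, a −log10 q-value and the summit offset for each summit. No column of sample values was left out (0).

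The planned edgeR test could not be run on 1 merged column per genotype, and no p-value is given. TCKO counts were scaled to the WT total, with 1 count added for single regions. A region belonged to a locus when it overlapped the gene (GENCODE M21) or 25 kb on either side, and to a promoter when its midpoint lay within 1 kb of a transcript start. Totals of 56898657 and 34608167 reads set the precision. Intervals (95%, Wilson) cover counting error only, since reads are not shown to be independent molecules. Members, gene lists, motifs and the naming rule were chosen with earlier results of these data known. The rule named each member, its main promoter region, its strongest region outside promoters, the 5 largest falls and rises with at least 100 counts in the higher genotype after scaling, and the 3 lowest and 3 highest loci of the wider pathway list. Promoter sequences came from RefSeq on GRCm38.p6 and other sequences from the GRCm38 assembly. The calculations, tested on simulated data, used Python 3.11.15, numpy 2.4.6, pandas 2.3.3, scipy 1.17.1, statsmodels 0.14.6, matplotlib 3.10.9, R 4.3.3, edgeR 4.0.16 (TMM factors) and DESeq2 1.42.0 (size factors). Alternatives were other scalings, counts added, count minimums, fold thresholds and windows around the genes.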

Additional observations from a re-analysis of the deposited data

How the results depend on the processing

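The scaling of TCKO to WT was the choice that mattered most, and the cause of the changes below was not tested. The 9 lower member regions became 41 with the peak caller's background, 57 with no scaling, 27 at 1.5-fold, 0 at 3-fold and 1 when the whole interval had to pass. The 17 higher ones became 5, 3, 35, 5 and 5 in the same order, 11 with 10 counts added and 11 within the gene and 2 kb before its start. With the peak caller's background and with no scaling, the median over member regions (-0.03) was -0.63 and -0.74, that over promoter regions (0.01) was -0.60 and -0.71, that over the 10 loci (-0.04) was -0.65 and -0.76, and that over the wider pathway (-0.02) was -0.63 and -0.73. TMM gave -0.11 for member regions and -0.0920 for the wider pathway, where DESeq2 size factors gave -0.0815. The *Tead2* locus turned from 0.35 to -0.26 with the peak caller's background and -0.37 with no scaling. The *Tead4* locus turned from -0.06 to 0.0137 with a loess trend removed, 0.0312 within the gene and 2 kb before its start and 0.0665 within 2 kb of a start. The *Lats1* locus turned from -0.12 to 0.0259 without any region near a start of another gene, its own promoter regions included, and the *Lats2* locus from -0.21 to 0.0026 within 2 kb of a start. Of 90 values for single loci under the alternatives, 21 changed sign. These 7 were of loci whose interval excluded 0, and the other 14 were of 4 loci whose interval spanned 0 (*Tead1*, *Tead3*, *Yap1* and *Ankrd1*). Of 60 values for the 10 largest falls and rises, 0 changed sign. No paired analysis was possible because replicates were merged into 1 column per genotype, and for the same reason no replicate could be left out. Few reads limit many regions past 2-fold: the 17 higher ones held at most 81 in WT and 103 in TCKO, and the 9 lower ones had a median of 33 in TCKO.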
